A study of Schizosaccharomyces pombe with 4 samples.

Results

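SPCC737.04, SPBC19C7.04c and SPAC1952.04c are 3 protein-coding genes of fission yeast (Schizosaccharomyces pombe) whose product is annotated as an uncharacterized protein. They are 3 of the 5133 genes listed in at least 1 library. They were chosen from the measured contrast itself, as genes without known function that were higher in Y41F cells, so their own levels and fold changes are given as a description with no test. The data are RNA-seq of total RNA from cells in log phase, grown in YEA medium at 30 °C. The 2 Y41F libraries came from strains SPBB297 (library 1) and SPBB298 (library 2), and both WT libraries came from strain KOR3006. The labels give no genotype beyond Y41F and WT and do not say whether libraries of 1 strain came from separate cultures, so p-values reflect the variation among these 4 libraries alone, part of which may be technical. The labels do not name the protein either, and Y41F was read here, from outside knowledge of the study, as a tyrosine-to-phenylalanine substitution in histone H3.

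Histone H3 is one of the core proteins around which DNA is wrapped, and this tyrosine lies near where the DNA enters and leaves the nucleosome. The fission yeast genome is compact, and neighbouring genes often lie close enough for their transcripts to overlap. The levels of the genes on both sides are therefore given with those of each gene. Genes without known function are known by their systematic identifiers, whose prefix names the sequenced clone and whose number mostly follows the order of genes along it.

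Each deposited table gives an expected count, the estimated number of reads assigned to a gene, and an FPKM value, which scales that count to coding length and library size. Library totals were between 20845572 and 23616464 expected counts, and 5076 genes passed the filter on low counts, among them all 3 genes described here. Libraries of 1 group were not copies of each other, with a chi-square, divided by its degrees of freedom, of 63.9 in Y41F and 43.4 in WT, where sampling noise alone gives about 1. Marker genes were set beside the log-phase label. The 6 of 6 markers of growing cells summed to 64964 to 69241 CPM in Y41F and 66620 to 72260 CPM in WT. The 7 of 7 sporulation genes summed to 435 to 441 CPM in Y41F and 411 to 433 CPM in WT. Most of the latter sum was spo15, annotated as mitotic and meiotic, at 268 to 301 CPM, so it says little of the others. Groups did not overlap for meu10 (7.35 and 9.74 CPM in Y41F, 4.78 and 5.70 CPM in WT) and spn5, both higher in Y41F, and for mde10, lower. Of the growth markers, eno101 was lower without overlap, at 17223 and 19176 CPM in Y41F against 19360 and 19321 CPM in WT. Over all genes tested, 19.2% were higher and 18% lower without overlap. CPM are counts scaled to a common library size with TMM, a method that equalises the bulk of genes between libraries.

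SPCC737.04 was higher in both Y41F libraries than in either WT library. Its level was 64.5 and 49.4 CPM in Y41F libraries 1 and 2, against 12.9 and 14.3 CPM in WT libraries 1 and 2. The groups did not overlap, and the lower Y41F library lay 3.44-fold above the higher WT library. The mean was 57.0 ± 10.7 CPM in Y41F and 13.6 ± 1.00 CPM in WT (SD, n = 2 each), a log2 fold change of 2.06 ± 0.17 (SE). The deposited counts behind these levels were 1545 and 1146 in Y41F and 276 and 302 in WT. The Y41F libraries differed from each other by more than counting error, with 95% exact Poisson intervals of 61.4 to 67.8 CPM for library 1 and 46.6 to 52.3 CPM for library 2. The WT intervals, 11.5 to 14.6 CPM and 12.8 to 16.1 CPM, overlapped. These intervals cover counting error only.

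SPBC19C7.04c showed the same order of libraries, from fewer reads. It had 29.5 and 23.5 CPM in Y41F libraries 1 and 2, against 6.51 and 8.50 CPM in WT libraries 1 and 2. The lower Y41F library was 2.77-fold above the higher WT library. The mean was 26.5 ± 4.21 CPM in Y41F and 7.51 ± 1.41 CPM in WT (SD, n = 2 each), a log2 fold change of 1.82 ± 0.19 (SE). Its counts were the smallest of the 3 genes, at 706 and 546 in Y41F and 139 and 179 in WT. The 95% exact Poisson interval of the lowest of them, WT library 1, was 117 to 164 counts.

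SPAC1952.04c differed by less, and its libraries agreed more closely within each group. It had 60.4 and 54.5 CPM in Y41F libraries 1 and 2, against 31.0 and 32.5 CPM in WT libraries 1 and 2. The groups again did not overlap, with 1.68-fold between the lower Y41F and the higher WT library. The mean was 57.5 ± 4.15 CPM in Y41F and 31.7 ± 1.07 CPM in WT (SD, n = 2 each), a log2 fold change of 0.86 ± 0.10 (SE). Its counts were 1446 and 1265 in Y41F and 661 and 684 in WT.

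**Figure D1:**
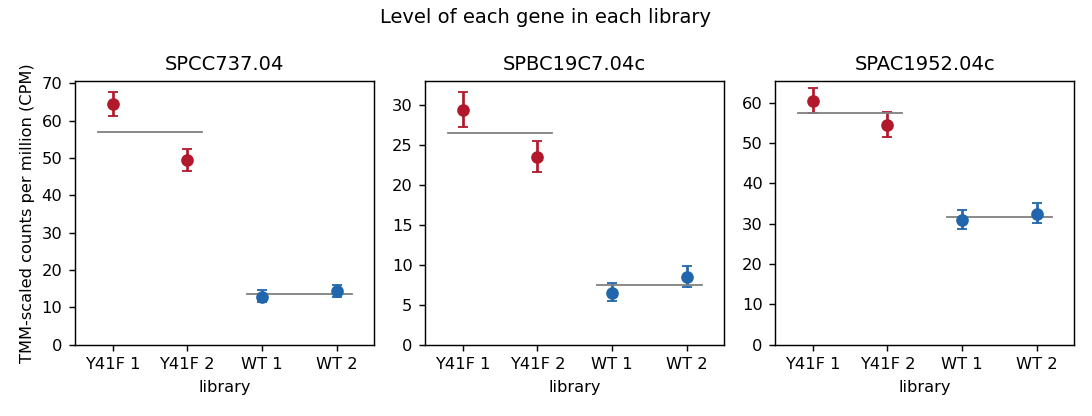
TMM-scaled CPM (y axis) of SPCC737.04, SPBC19C7.04c and SPAC1952.04c in the 2 Y41F and the 2 WT libraries (x axis). Points are libraries, bars 95% exact Poisson intervals of the count, and grey lines group means. In each panel both Y41F points lie above both WT points, and Y41F library 1 lies above Y41F library 2.

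Each Y41F strain was higher than the WT mean by itself. Strain SPBB297 exceeded the WT mean by a log2 difference of 2.24 for SPCC737.04, 1.99 for SPBC19C7.04c and 0.93 for SPAC1952.04c. Strain SPBB298 exceeded it by 1.86, 1.66 and 0.78 for the same genes. The Y41F libraries thus stood in the same order for all 3 genes, with a log2 difference of library 2 over library 1 of -0.39, -0.33 and -0.15. Within WT that difference had the opposite sign, at 0.15, 0.38 and 0.07. Each Y41F strain has 1 library, so a difference between strains cannot be told apart from one between libraries. For each of the 3 genes, the Y41F libraries differed from one another by less than either of them did from either WT library. A small spread beside the difference goes with how the genes were chosen, so it is no support. Log2 differences between a Y41F and a WT library spanned 1.78 to 2.32 for SPCC737.04, 1.47 to 2.18 for SPBC19C7.04c and 0.75 to 0.96 for SPAC1952.04c. Libraries carrying the same number gave 2.32 and 1.78 for SPCC737.04, 2.18 and 1.47 for SPBC19C7.04c and 0.96 and 0.75 for SPAC1952.04c, for numbers 1 and 2 in that order.

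Set against all genes, the fold changes of SPCC737.04 and SPBC19C7.04c ranked 15 and 16 of 5076 and that of SPAC1952.04c ranked 79. Among the 4862 genes averaging 5 CPM or more the ranks were 7, 8 and 49. The background of the comparison was low: edgeR's quasi-likelihood test called 1 gene, yhb1, or 0.0197% of those tested, at an adjusted p under 0.05, and DESeq2 called 68, or 1.34%. Without Y41F library 1 edgeR called 65, without Y41F library 2 it called 197, and without either WT library it called 0 (168 and 262 at an unadjusted p under 0.05 without WT library 1 and 2). These fits leave 1 library in a group, which is assumed to vary like the 2 of the other group, so their counts are not like the count from all 4 libraries. Both Y41F libraries lay above both WT libraries for 19.2% of all genes tested and below them for 18%.

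Per length of coding sequence, the 3 genes kept their order in all 4 libraries, with SPAC1952.04c highest and SPCC737.04 lowest. SPAC1952.04c had 156 and 142 FPKM in Y41F libraries 1 and 2, against 75.6 and 83.6 FPKM in WT. SPBC19C7.04c had 84.9 and 68.1 FPKM in Y41F, against 17.7 and 24.4 FPKM in WT. SPCC737.04 had 51.2 and 39.4 FPKM in Y41F, against 9.70 and 11.3 FPKM in WT. The ranges of neighbours in this order did not overlap within either group.

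Placed among all listed genes, SPCC737.04 stood at the 45.1 and 32.5 percentile of FPKM in the Y41F libraries, against the 7.49 and 7.60 percentile in the WT libraries. SPBC19C7.04c stood at the 64.7 and 55.2 percentile in Y41F, against 14.8 and 18.1 in WT. SPAC1952.04c stood at the 81.0 and 78.6 percentile in Y41F, against 62.2 and 63.9 in WT. In WT, SPCC737.04 and SPBC19C7.04c were thus among the less abundant genes, while SPAC1952.04c was above the middle in every library. FPKM levels of SPBC19C7.04c were 1.66 and 1.73 times those of SPCC737.04 in Y41F, and 1.83 and 2.15 times in WT. FPKM levels of SPAC1952.04c were 3.05 and 3.59 times those of SPCC737.04 in Y41F, and 7.79 and 7.37 times in WT.

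**Figure D2:**
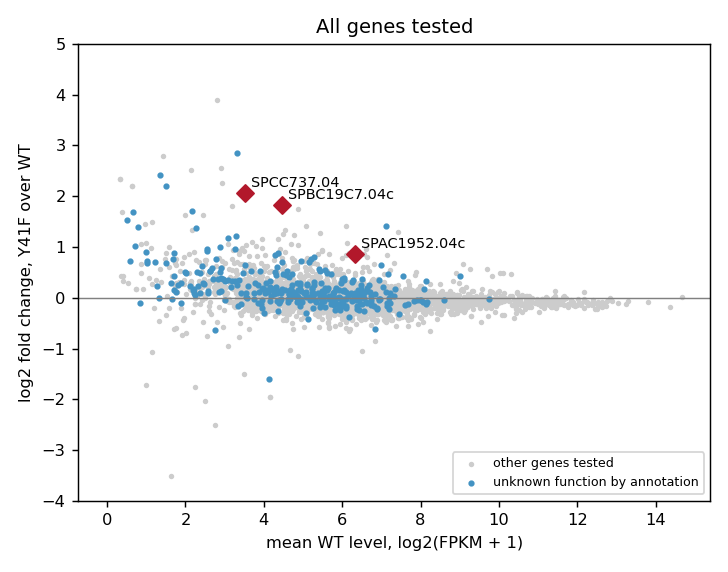
Log2 fold change of Y41F over WT (y axis) against mean WT level as log2(FPKM + 1) (x axis) for the 5076 genes tested. Blue points are genes of unknown function by annotation, grey points all other genes, and red diamonds SPCC737.04, SPBC19C7.04c and SPAC1952.04c, at 2.06, 1.82 and 0.86. The 2 genes beyond the y range are not drawn.

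The genes lie on 3 different chromosomes. In the order of coding genes in the RefSeq annotation of ASM294v3, SPAC1952.04c is number 2097 of 2333 on chromosome I, SPBC19C7.04c number 1146 of 1865 on chromosome II and SPCC737.04 number 709 of 915 on chromosome III. The deposited coding lengths are 414, 375 and 1266 bases in the same order. SPAC1952.04c, which this annotation also describes as a conserved fungal protein, has 4 coding segments, and the other 2 genes have 1 each. No coding gene overlaps any of the 3. The deposited counts of each were whole numbers in all 4 libraries, as for 95.4% of genes, whereas reads that an estimate splits between copies usually leave fractions. Antisense non-coding RNA genes are annotated over the coding sequence of SPBC19C7.04c (SPNCRNA.5835) and of SPAC1952.04c (SPNCRNA.4237), and none over that of SPCC737.04. The sources used here do not give whether counting used strand. For SPBC19C7.04c and SPAC1952.04c, sense and antisense reads therefore cannot be told apart.

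None of the genes beside them passed the test. The 3 coding genes on either side of each, 18 in all, were examined. EdgeR called 0 of them (0 also at an unadjusted p under 0.05, and 0 by DESeq2 and by limma). Over all genes tested edgeR called 0.0197% and DESeq2 1.34%, so most sets of 18 genes would hold no call. The log2 fold changes of the 18 ran from -0.18 to 0.20 with a median of 0.00, against -0.00 over all genes tested. Their edgeR adjusted p was between 0.797 and 0.985. On TMM-scaled CPM both Y41F libraries lay above both WT libraries for 1 of the 18 (5.56%, against 19.2% of all genes). They lay below them for 4 (22.2%, against 18%). That split turned on the scaling. On FPKM, rcr1, gab1, SPCC737.07c and SPAC1952.08c lay higher in Y41F without overlap, and of the 18 only qcr7 lower. Over all genes tested, 25.6% lay higher and 10.6% lower on FPKM.

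Around SPCC737.04, the gene before it, ima1 (SPCC737.03c), encodes an inner nuclear membrane protein. It had 89.3 and 114 CPM in Y41F, against 86.3 and 96.4 CPM in WT, a log2 fold change of 0.15 ± 0.14 (SE). The gene after it, SPCC737.05, is annotated as a peroxin, a protein of peroxisome formation. It had 63.6 and 57.6 CPM in Y41F, against 62.2 and 55.9 CPM in WT, a log2 fold change of 0.04 ± 0.10. The groups overlapped for both. The respiratory chain gene qcr7 had -0.18 ± 0.10. The gene gcs2, for the regulatory subunit of the enzyme that starts glutathione synthesis, had -0.06 ± 0.08. Both had Y41F libraries below the WT libraries on TMM-scaled CPM, and on FPKM the groups of gcs2 overlapped. SPCC297.06c had -0.04 ± 0.11 and the helicase gene SPCC737.07c had -0.02 ± 0.08.

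SPBC19C7.04c lies beside cyr1 (SPBC19C7.03), the gene of adenylate cyclase, which makes the cAMP that signals glucose in this yeast. The cyr1 level was 127 and 117 CPM in Y41F, against 110 and 123 CPM in WT, a log2 fold change of 0.07 ± 0.10 (SE). On the other side, rcr1 (SPBC19C7.05) had 101 and 112 CPM in Y41F, against 102 and 83.0 CPM in WT, a log2 fold change of 0.20 ± 0.12. It was the highest of the 18 fold changes. On TMM-scaled CPM the rcr1 groups overlapped. On FPKM both its Y41F libraries lay above WT, at 236 and 263 in Y41F against 225 and 194 in WT. The ubiquitin ligase gene ubr1 had 0.05 ± 0.08, mni1 had -0.11 ± 0.12, the prolyl-tRNA synthetase gene prs1 had -0.10 ± 0.10 and the tRNA-splicing endonuclease gene sen34 had 0.04 ± 0.10.

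SPAC1952.04c lies beside gcn5 (SPAC1952.05), which encodes the histone acetyltransferase of the SAGA coactivator complex. The gcn5 level was 39.7 and 34.1 CPM in Y41F, against 41.9 and 40.5 CPM in WT, with a log2 fold change of -0.16 ± 0.12 (SE) and an adjusted p of 0.843 by edgeR. On the other side, otu2 (SPAC1952.03), for a ubiquitin-specific protease, had 87.7 and 90.9 CPM in Y41F, against 96.2 and 84.2 CPM in WT, a log2 fold change of -0.01 ± 0.10. On TMM-scaled CPM the Y41F libraries of gcn5 lay below its WT libraries, as for 18% of all genes tested. On FPKM its groups overlapped, at 29.16 and 25.14 in Y41F against 29.11 and 29.65 in WT. The GPI transamidase gene gab1 had 0.07 ± 0.10, tma23, for a ribosome biogenesis protein, had -0.15 ± 0.16, SPAC1952.06c had 0.02 ± 0.09 and SPAC1952.08c had 0.04 ± 0.09.

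**Figure D3:**
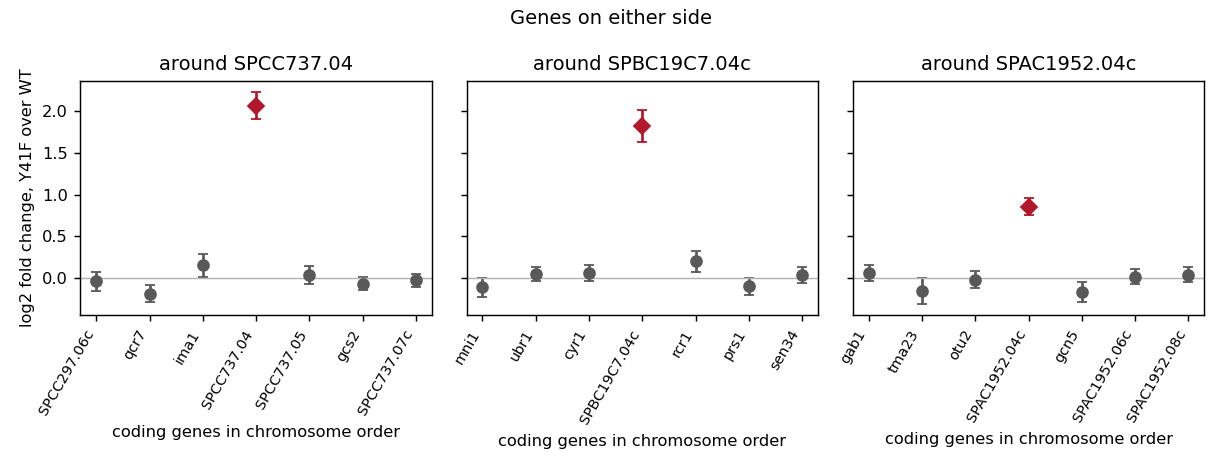
Log2 fold change of Y41F over WT with SE (y axis) for the 3 coding genes on either side of SPCC737.04, SPBC19C7.04c and SPAC1952.04c, in chromosome order but not to scale along the x axis. The red diamonds, at 2.06, 1.82 and 0.86, stand above grey neighbours that lie between -0.18 and 0.20.

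The other genes of the same identifier prefixes numbered 34, all of which were tested. EdgeR called 0 of them, 1 had an unadjusted p under 0.05, and DESeq2 called 1, the same gene, omh1 (SPBC19C7.12c). Over all genes tested edgeR called 0.0197% and DESeq2 1.34%. The median log2 fold change of the 34 was 0.01. Groups did not overlap for 5 of the 34 higher in Y41F (14.7%) and for 7 lower (20.6%), against 19.2% and 18% of all genes. That split turned on the scaling: scaled by library size alone it was 12 higher and 3 lower, against 1304 higher and 543 lower over all genes.

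By prefix, the 7 other SPCC737 genes had a median of -0.02 and a range of -0.18 to 0.15. On TMM-scaled CPM, 3 had Y41F libraries below WT: qcr7, gcs2 and mdn1, for midasin, a ribosome assembly factor, at -0.08 ± 0.10 (SE). On FPKM the groups of gcs2 and mdn1 overlapped, and SPCC737.07c lay higher in Y41F without overlap. The 11 other SPBC19C7 genes had a median of 0.05. Of these, omh1, a Golgi mannosyltransferase gene, had 104 and 95.3 CPM in Y41F, against 67.2 and 67.4 CPM in WT, with a log2 fold change of 0.57 ± 0.09 (SE) and an adjusted p of 0.244 by edgeR and 8.01e-04 by DESeq2 (from 8.01e-04 to 1.000 over all alternatives). It is not among the 3 genes on either side of SPBC19C7.04c. The range of the other SPBC19C7 genes ended at the 0.20 of rcr1.

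The 16 other SPAC1952 genes had a median of -0.00 and a range of -0.22 to 0.18. Groups did not overlap for 4 of them higher in Y41F: SPAC1952.10c at 0.18 ± 0.11 (SE), tbc13 at 0.14 ± 0.10, the lipin gene ned1 at 0.12 ± 0.09 and SPAC1952.08c at 0.04 ± 0.09. They did not overlap for 3 lower in Y41F: the urease gene ure2 at -0.22 ± 0.10, mrpl25, for a mitochondrial ribosomal protein, at -0.18 ± 0.11, and gcn5. On FPKM the groups of gcn5 overlapped. Also on FPKM, gab1, the checkpoint gene rad1 and the RhoGAP gene rga9 lay higher in Y41F without overlap. None of the 7 without overlap on TMM-scaled CPM was called by edgeR (adjusted p from 0.775 to 0.949).

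The genes whose levels ran most alike were found by the Euclidean distance between log2(CPM + 1) values, each centred on its mean over the 4 libraries, among the other 4861 genes that averaged 5 CPM or more. SPCC737.04 and SPBC19C7.04c were each other's nearest gene, at a distance of 0.32. Their next was yhb1 (SPAC869.02c), for a nitric oxide dioxygenase, at 0.63 from SPCC737.04 and 0.45 from SPBC19C7.04c. The third was SPAC29A4.22, of unknown function, at 0.67 from SPCC737.04, and mal1 (SPBC1683.07), a maltase gene, at 0.51 from SPBC19C7.04c. With 4 libraries in 2 groups, a small distance mostly says that 2 genes differ by a like amount between Y41F and WT.

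The yhb1 level was 239 and 233 CPM in Y41F, against 90.4 and 86.7 CPM in WT, and that of mal1 was 90.8 and 93.7 CPM in Y41F, against 34.3 and 42.5 CPM in WT. SPAC29A4.22 had 16.4 and 8.84 CPM in Y41F, against 0.984 and 2.52 CPM in WT, so its libraries spread further within each group. SPAC1952.04c had closer likenesses, all with smaller differences. They were SPBC15C4.06c, annotated as a ubiquitin-protein ligase, at a distance of 0.09, the hexose transporter gene ght4 (SPBC1683.08) at 0.14 and rsv2 (SPBC1105.14), for a transcription factor, at 0.15. SPBC15C4.06c had 31.4 and 29.7 CPM in Y41F, against 15.2 and 16.9 CPM in WT. The ght4 level was 63.6 and 63.3 CPM in Y41F, against 37.2 and 36.3 CPM in WT.

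**Figure D4:**
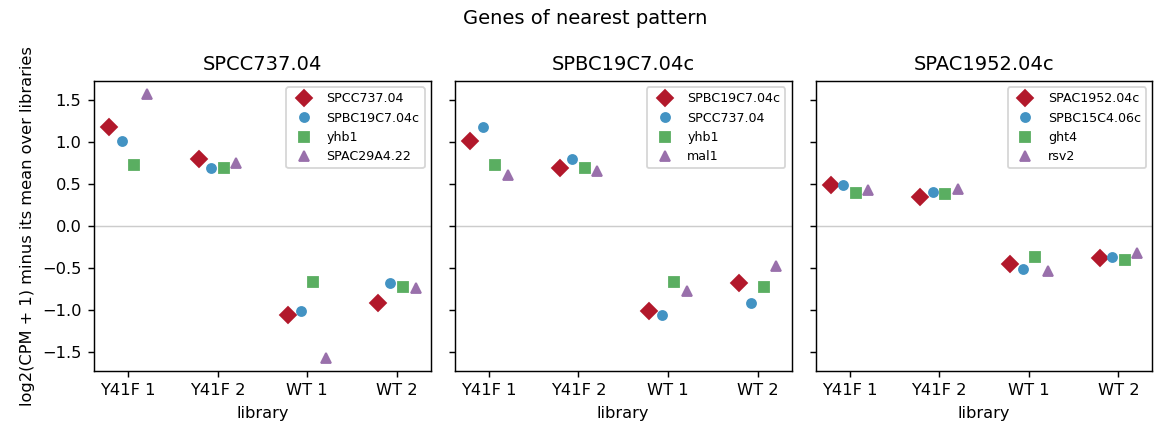
Log2(CPM + 1) minus its mean over the 4 libraries (y axis) for SPCC737.04, SPBC19C7.04c and SPAC1952.04c (red diamonds) and the 3 genes of nearest pattern to each (other symbols), by library (x axis). All lie above 0 in Y41F and below 0 in WT, which follows from how the red genes were chosen, and those around SPAC1952.04c lie within distances of 0.09 to 0.15 of it.

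The other tested genes of unknown function by annotation numbered 334. EdgeR called 0 of them. At an unadjusted p under 0.05 it had 32, 30 higher and 2 lower, against 249 higher and 91 lower of all 5076 genes tested. DESeq2 called 3 of the 334, against 68 (1.34%) of all genes. Limma on log2(FPKM + 1) called 1, against 3 of all genes. Groups did not overlap for 114 higher in Y41F (34.1%) and 32 lower (9.58%), against 19.2% and 18% of all genes. Their median log2 fold change was 0.10, against -0.00 over all genes tested. They were less abundant per length than genes at large, with a median of 36.6 and 36.9 FPKM in Y41F and 31.0 and 33.6 FPKM in WT, against 58.4 and 60.7 FPKM in Y41F and 55.3 and 59.4 FPKM in WT over all genes tested. The part of level in their higher count was not tested beyond a filter at 10 CPM, which left 217 of them. Groups of these 217 did not overlap for 64 higher in Y41F (29.493%) and 28 lower (12.903%), with a median of 0.05. Over all 4688 genes left by that filter it was 890 higher (18.985%) and 817 lower (17.427%), with a median of -0.0045.

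The 3 genes were picked for being higher in this contrast, so their place in it follows from the choice. The next genes of unknown function in it, ordered by p among those averaging 5 CPM or more and with Y41F libraries above WT, were SPAC29A4.22 at a log2 fold change of 2.85 ± 0.51 (SE), SPCC191.01 at 0.73 ± 0.15 and SPAC4G9.22 at 0.81 ± 0.17. SPCC191.01 had 27.6 and 25.1 CPM in Y41F, against 14.2 and 17.6 CPM in WT. SPAC4G9.22 had 19.7 and 15.4 CPM in Y41F, against 10.3 and 9.74 CPM in WT. Of the 3 genes that DESeq2 called, 2 are SPAC29A4.22 and SPCC191.01. The third, SPBCPT2R1.02, had 3.17 and 3.66 CPM in Y41F and 0 counts in both WT libraries. It thus passed the filter on low counts through its Y41F libraries alone, and its fold change depends on how 0 is handled. The 1 gene called by limma on log2(FPKM + 1) was also SPBCPT2R1.02.

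The core environmental stress response is a set of genes that fission yeast induces under many different stresses, and 32 of its genes were set beside the 3. The list was chosen with earlier results of these data known. EdgeR called 0 of the 32 and limma called 0. At an unadjusted p under 0.05 edgeR had 9, all higher, against 249 higher and 91 lower of all 5076 genes tested. DESeq2 called 5, all higher: gcd1, rsv2, pyp2, hri1 and ssa1, against 68 (1.34%) of all genes in either direction. Groups did not overlap for 11 higher in Y41F (34.4%) and 2 lower (6.25%), against 19.2% and 18% of all genes, and the median log2 fold change was 0.22. The gene gcd1, for a dehydrogenase of glucose metabolism, had 72.5 and 91.1 CPM in Y41F, against 29.4 and 35.3 CPM in WT, a log2 fold change of 1.34 ± 0.15 (SE). The rsv2 level was 179 and 180 CPM in Y41F, against 91.6 and 106 CPM in WT, a log2 fold change of 0.86 ± 0.10. The most abundant members, rds1 and gpd1, had 0.18 ± 0.57 and 0.07 ± 0.12, and their groups overlapped.

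The stress list also differed between libraries of 1 group, by a median log2 difference of library 2 over library 1 of 0.16 in Y41F and 0.20 in WT. For SPCC737.04, SPBC19C7.04c and SPAC1952.04c that difference was negative in Y41F and positive in WT. Without WT library 2 the median of the list was 0.54, without Y41F library 1 it was 0.43, without Y41F library 2 it was 0.04 and without WT library 1 it was 0.05. The part of this library difference in the values of the 3 genes was not tested.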

How the data were processed

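Gene tables of 4 RNA-seq libraries were used. Per the file headers, the authors deposited for each gene its expected count and its FPKM. RSEM, Bowtie, BWA and the genome build ASM294v2 are named in the submitters' processing notes, and their roles and versions, and the use of strand, are not given in the sources used here. Deposited lengths are multiples of 3 for 100% of genes, so they are coding lengths. Genes missing from a table were taken as 0. Of 5133 identifiers, 5096 matched coding genes of the RefSeq annotation of ASM294v3, and for 97.4% of these the coding length equalled the deposited one. As the builds differ, it was used for names, products, overlaps and gene order, and no coordinates or sequences are given.

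Expected counts were rounded and tested with edgeR 4.0.16 (R 4.3.3; quasi-likelihood test, TMM, default filter, which removed 57 genes), with Benjamini-Hochberg adjustment over all genes and a threshold of 0.05, after a check on simulated data. SE is the fold change divided by the root of its F statistic. Alternatives used DESeq2 1.42.0 and limma 3.58.1. The 3 genes, the lists and the rules for naming genes were chosen with earlier results of these data known. Named genes are the 3 themselves, up to 3 coding genes on either side, genes of the same prefix without overlap, the 3 nearest patterns to each, and the 2 stress genes with the smallest p and the 2 most abundant. Genes named beyond these, in the lists of calls, were chosen after their values were seen. Genes of unknown function are those whose product text holds, in any case, hypothetical, uncharacterized, sequence orphan, conserved fungal protein, pombe specific, dubious, DUF or UPF. As this goes by text alone, the list can hold genes whose function is known. The planned comparison by protein family had no family named in the annotation, and the planned promoter motifs were not analysed, as no genome of ASM294v2 was used.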

Additional observations from a re-analysis of the deposited data

How the results depend on the processing

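SPCC737.04, SPBC19C7.04c and SPAC1952.04c kept their direction under all 12 alternatives to the fit. These were other scaling, tests, filters and units, the replicate block and leaving out each library. The genes were picked for being higher in this contrast and their groups did not overlap. That they kept their direction was therefore given in advance and is no support. Their log2 fold changes ran from 1.69 to 2.24, from 1.64 to 2.02 and from 0.79 to 0.93. For SPCC737.04 the lowest, 1.69, came on log2(FPKM + 5), a scale that understates the change of low genes.

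The number of genes called was 1 with edgeR, 68 with DESeq2, 3 with limma on log2(FPKM + 1) and 87 with the replicate block. Without single libraries it was between 0 and 197: 65 without Y41F library 1, 197 without Y41F library 2 and 0 without either WT library (168 and 262 at an unadjusted p under 0.05 without WT library 1 and 2). Such a fit takes its spread from the group that keeps 2 libraries, and the lone library is assumed to vary like them. The cause was not tested. The block is the library number of the titles. Same-numbered libraries deviated together from their group means (r = 0.45 across genes), but the labels do not say that a number marks a shared batch, and with 2 pairs the samples share only a number. With the block the 3 genes, whose own calls are not read as tests, had 2.05, 1.82 and 0.86, and 9 stress genes and 8 others of unknown function were called.

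Genes without overlap and higher in Y41F numbered 977 over all genes and 1558 to 1863 without single libraries, since fewer libraries overlap less often. The same holds for the genes of the same prefixes (5, or 11 to 14) and for the stress list (11, or 15 to 23). It also holds for other genes of unknown function (114, or 153 to 191). With a filter at 10 CPM the count for other genes of unknown function was 64 of 217, against 890 of all 4688 genes. For the prefixes the count was 12 when scaled by library size alone and 11 on both FPKM scales. The median of the prefixes was 0.014 with TMM and 0.060 with library size only and on log2(FPKM + 1). The 18 genes beside the 3 had 0.048 with library size only, 0.050 on log2(FPKM + 1) and 0.046 on log2(FPKM + 5), or -0.050 to 0.016 without single libraries. The stress list had 0.22 with all 4 libraries and 0.044 to 0.54 without single libraries, with 0 to 9 calls, against 5 with DESeq2. Other genes of unknown function had 0.10 with TMM, 0.14 with library size only, 0.046 with the 10 CPM filter and 0.054 to 0.13 without single libraries, with 0 to 13 calls, against 3 with DESeq2 and 1 with limma on log2(FPKM + 1).

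No gene beside the 3 was called under any alternative. Fold changes near 0 changed sign in places. With library size only, on log2(FPKM + 1) and on log2(FPKM + 5), otu2 had 0.034, 0.035 and 0.033, SPCC297.06c 0.012, 0.0083 and 0.0080, and SPCC737.07c 0.023, 0.023 and 0.021. Without single libraries the ranges crossed 0 for otu2 (-0.11 to 0.088), SPCC297.06c (-0.14 to 0.068), SPCC737.07c (-0.063 to 0.019), SPCC737.05 (-0.039 to 0.12), ima1 (-0.032 to 0.33), tma23 (-0.38 to 0.051), SPAC1952.06c (-0.043 to 0.086), mni1 (-0.22 to 0.0011), ubr1 (-0.0017 to 0.11), cyr1 (-0.0098 to 0.15), gpd1 (-0.052 to 0.19) and rds1 (-0.79 to 0.85). The 3 genes rested on 139 to 1545 counts per library, and 2 libraries per group limit the precision of every fold change.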
